A study of Mus musculus with 38 samples.

Results

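The 33 genes described here are the hypoxia response and glycolysis genes of the mouse mammary tumor arrays, from the oxygen-regulated transcription factor Hif1a to the enzymes that turn glucose into lactate. A probe was counted as a member where its gene name in the scanner output was one of these 33 symbols. Probes of that kind were found for 32 of the 33 genes, 58 probes of the 41174 on the array and 32 of its 27962 gene names. No probe bore the name of Gapdh, the enzyme that oxidizes glyceraldehyde 3-phosphate, so Gapdh has no value here. The 32 genes comprised 3 regulators of the hypoxia-inducible factor (HIF) pathway, 12 hypoxia-induced genes, 2 glucose transporters, 12 glycolytic enzymes and 3 genes that set the rate of glycolysis or the fate of pyruvate.

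All samples were GFP-positive cells sorted from FVB/n host mice. The hosts had received, in a cleared number 4 fat pad at 3 weeks of age, a hyperplasia from a 3-week-old donor carrying MMTV-PyMT and actin-GFP, so that a mammary tumor virus promoter drove the polyoma middle T oncogene and an actin promoter marked donor cells with GFP. The progression experiment held 5 adenomas (5-week outgrowths), 6 carcinomas (18-week outgrowths), 6 samples of disseminated cells, each pooled from the lungs of 3 to 6 mice with 18-week outgrowths, and 5 samples of lung metastases, taken 8 to 10 weeks after an 18-week tumor had been removed. The chemotherapy experiment held 6 untreated tumors (labeled control), 6 residual tumors (labeled regressed) and 4 relapsed tumors (labeled resistant). The treated mice received docetaxel, doxorubicin and cyclophosphamide every 21 days from 8 weeks after transplantation, and residual tumors were taken 10 days after dose 1 and relapsed tumors 10 days after dose 4. Every value below is a log2 ratio of the sample to 1 pooled mouse reference RNA. A value of 0 is the level of that reference, and the scale allows no ranking of one gene against another.

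Cells sense oxygen through prolyl hydroxylases of the Egln family, which mark the HIF alpha subunit for destruction while oxygen is present. When oxygen falls, HIF1 alpha protein persists, pairs with Arnt and binds short sequences with the core ACGTG or GCGTG near its target genes. Those targets bring glucose into the cell, run glycolysis, divert pyruvate from the mitochondrion and promote vessel growth, which is why they are widely read as a record of poorly perfused tumor regions. Much of this control acts on HIF1 alpha protein, which the arrays did not measure.

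The promoters of the genes that carry the results are shown because the letters bound by HIF can be read in them directly. Each window runs from 250 bases before to 50 bases after a transcription start in RefSeq, build GRCm38.p6, and is printed 5′ to 3′ on the strand of the gene, with ACGTG and GCGTG on either strand in capitals. Ddit4 had the largest rise in carcinomas, and Adm, Bnip3 and Pgk1 changed in the most comparisons. The windows lie at chr10:59951721-59952020 on the minus strand (Ddit4), chr7:110627407-110627706 on the plus strand (Adm), chr7:138909457-138909756 on the minus strand (Bnip3) and chrX:106186850-106187149 on the plus strand (Pgk1).
Ddit4: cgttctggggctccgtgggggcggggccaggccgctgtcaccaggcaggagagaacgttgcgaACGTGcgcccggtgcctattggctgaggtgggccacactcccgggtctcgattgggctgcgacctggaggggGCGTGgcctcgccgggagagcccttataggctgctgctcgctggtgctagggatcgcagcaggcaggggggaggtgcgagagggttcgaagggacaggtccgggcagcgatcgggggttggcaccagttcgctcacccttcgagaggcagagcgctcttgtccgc
Adm: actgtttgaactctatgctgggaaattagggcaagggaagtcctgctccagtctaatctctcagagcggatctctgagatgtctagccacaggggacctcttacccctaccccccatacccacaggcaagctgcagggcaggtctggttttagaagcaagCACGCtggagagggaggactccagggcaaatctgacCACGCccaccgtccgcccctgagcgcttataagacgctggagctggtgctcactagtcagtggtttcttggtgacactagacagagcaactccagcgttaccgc
Bnip3: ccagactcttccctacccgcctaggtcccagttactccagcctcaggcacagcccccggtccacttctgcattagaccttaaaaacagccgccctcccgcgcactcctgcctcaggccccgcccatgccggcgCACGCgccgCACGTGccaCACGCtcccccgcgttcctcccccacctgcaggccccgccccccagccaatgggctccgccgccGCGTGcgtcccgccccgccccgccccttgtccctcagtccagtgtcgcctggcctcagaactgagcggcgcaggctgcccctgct
Pgk1: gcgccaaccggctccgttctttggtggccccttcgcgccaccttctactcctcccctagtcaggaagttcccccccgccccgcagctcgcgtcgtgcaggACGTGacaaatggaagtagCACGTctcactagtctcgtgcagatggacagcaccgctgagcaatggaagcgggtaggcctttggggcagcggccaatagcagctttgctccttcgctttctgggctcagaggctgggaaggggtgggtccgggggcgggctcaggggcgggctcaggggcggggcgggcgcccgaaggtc

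The Ddit4 window holds 1 ACGTG and 1 GCGTG, that of Adm 2 GCGTG, that of Pgk1 2 ACGTG, and that of Bnip3 3 GCGTG beside a CACGTG, which reads ACGTG on both strands and counts as 2 matches. Of the 33 genes, 31 matched the promoter table, 2 of them through an older symbol (Ero1l as Ero1a and Pkm2 as Pkm), with 44 windows in all. At least one of the pair of motifs was present in 36 of these 44 windows (81.8%), against 43.8% of all 32851 windows in the table. ACGTG was in 61.4% of member windows and 19.6% of all, and GCGTG in 56.8% and 32.4%. The genes were listed as hypoxia response and glycolysis genes, so an excess of HIF motifs among them is not independent evidence. The windows compared were not matched for base composition. The letters are short, and no binding was measured here. Ldha had the most matches in 1 window (7), while no window of Gpi1 or Tpi1 held either motif.

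Before the results, 3 features of the arrays bear on the values. On the progression arrays, carcinomas and metastases shared slides 6 to 8 and 1 scan day, and adenomas and disseminated cells shared slides 9 to 11 and another day. Metastases against carcinomas and disseminated cells against adenomas could therefore also be compared within slides. The calls, SEs and adjusted p values below come from a model without slide, except where a slide block is named. In the other 4 progression comparisons, the groups cannot be told apart from slide and scan day. Carcinoma 6 stood apart from its group, with a median correlation of 0.759 to the other carcinomas, and the carcinoma comparisons were also made without it. The sample channel was well above background at 48.4 to 78.9% of spots on the progression arrays and 50.5 to 64.3% on the chemotherapy arrays, and no spot of the 32 genes was saturated.

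Markers of other cell types were present in the sorted cells. The mean log2 ratio of 10 macrophage markers was 0.09 to 0.74 in adenomas, -0.22 to 1.0 in carcinomas 1 to 5, 5.13 in carcinoma 6, 3.44 to 5.19 in disseminated cells and 1.22 to 5.48 in metastases. Summed over the markers, the signal ran from 141000 to 214000 in adenomas, 136000 to 1280000 in carcinomas, 665000 to 1260000 in disseminated cells and 306000 to 1060000 in metastases. Disseminated cells also exceeded carcinomas at 8 of 9 neutrophil, 5 of 5 alveolar macrophage and 4 of 6 lung epithelium markers, and fell below them at 2 of 8 markers of mammary epithelium. The mammary markers averaged 2.96 to 3.78 in adenomas and 2.40 to 4.15 in carcinomas, but ranged from -0.16 to 3.54 in disseminated cells and from -0.18 to 4.44 in metastases. In a bulk sample, fewer cells of one type and less RNA per cell cannot be told apart.

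The first question was how hypoxia and glycolysis genes differ between stages of tumor progression. All 4 groups entered 1 limma model, and a gene was called changed at a Benjamini-Hochberg adjusted p below 0.05 over all 27962 gene names and a change of at least 2-fold. Since the comparisons share groups, they are not independent of each other. Of the 32 genes, 20 were called in at least 1 of the 6 progression comparisons and 12 in none. The matching share of all genes is not given here, so the 20 cannot be read as particular to these genes.

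In carcinomas against adenomas, 6 genes rose and 0 fell (all genes: 1.2% higher and 2.17% lower), and the median change over the 32 was 0.36 against 0.07 over all genes. In disseminated cells against carcinomas, 3 rose and 5 fell (all genes: 5.54% and 6.23%), with a median of -0.06 against -0.07. In metastases against carcinomas, 7 rose and 0 fell (all genes: 4.77% and 5.45%), with a median of 0.37 against -0.05. Without carcinoma 6, the counts in these 3 comparisons were 6 and 0 (Aldoa gained, Pgk1 lost; all genes 1.42% and 2%), 4 and 6 (Hk2 gained as a rise, Hk1 as a fall; all genes 6.59% and 7.95%) and 8 and 0 (Slc2a3 gained; all genes 6.47% and 7.19%).

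In metastases against disseminated cells, 9 rose and 0 fell (all genes: 3.45% and 3.73%), and the median was 0.69 against 0.01. The number of calls ran from 6 without disseminated 3 to 14 (12 rises and 2 falls) without disseminated 6. Among disseminated samples, number 6 had the highest mammary marker mean (3.54). In disseminated cells against adenomas, 6 rose and 1 fell (all genes: 4.71% and 5.98%), with a median of 0.14 against -0.01. In metastases against adenomas, 10 rose and 1 fell (all genes: 6.13% and 8.66%), with a median of 0.78 against 0.01. With all samples kept, no member fell in 3 of the 6 comparisons, and falls outnumbered rises only in disseminated cells against carcinomas.

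**Figure D1:**
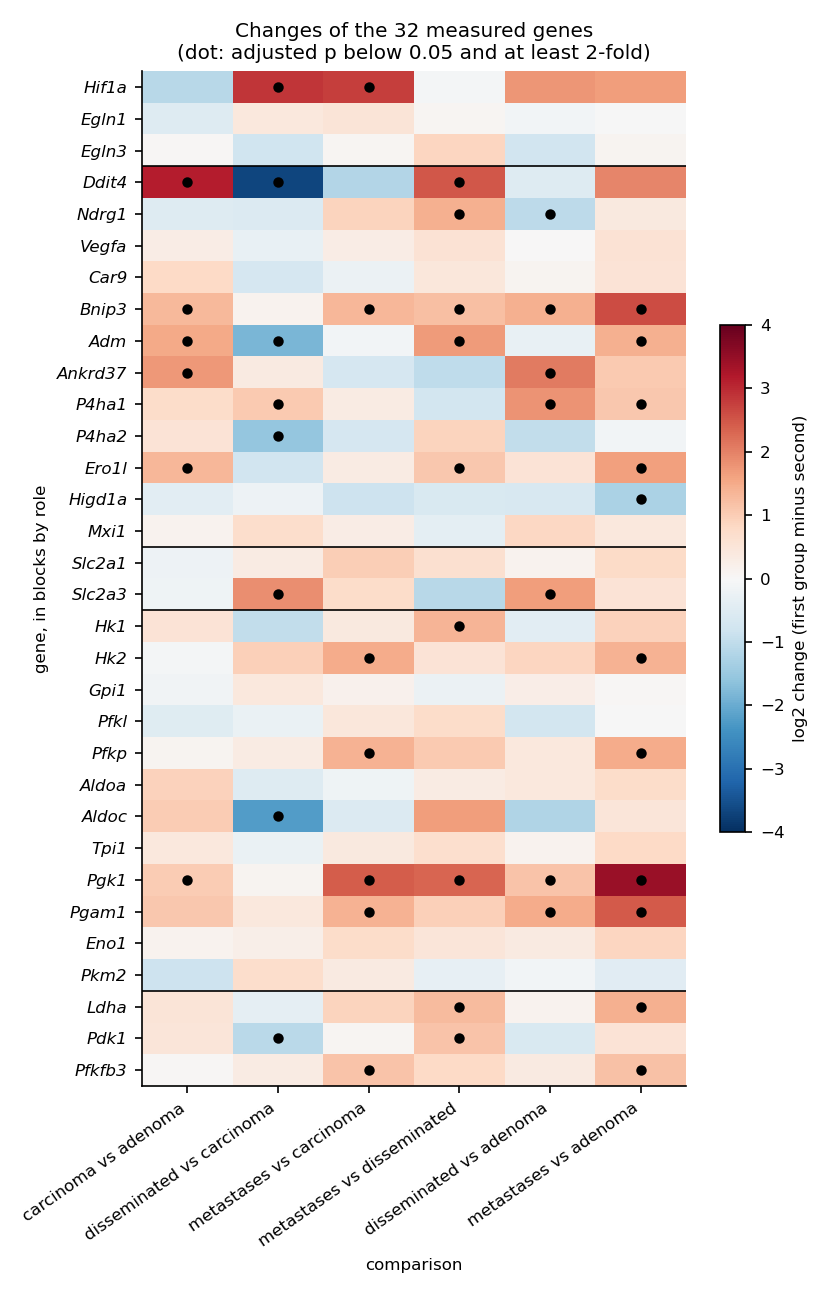
Log2 change of the 32 measured genes (rows, in blocks by role from HIF regulators at the top to pyruvate and glycolysis regulators at the bottom) in the 6 progression comparisons (columns); red is higher in the group named first, blue lower, and a dot marks an adjusted p below 0.05 with at least a 2-fold change. Pgk1 and Bnip3 carry a dot in 5 comparisons each, and Ddit4 runs from 3.14 to -3.66.

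Among the HIF regulators, Hif1a encodes the oxygen-regulated subunit itself. Its log2 ratio was -2.35, -2.13, -2.41, -3.42 and -2.83 in the 5 adenomas. In carcinomas it ran from -4.51 to -1.81 with a median of -3.99, and in disseminated cells from -2.60 to 0.90 with a median of -0.92. In metastases it was -0.71, -1.44, 0.10, 0.37 and -3.08. The carcinomas were the lowest group apart from carcinoma 6, their highest value at -1.81, and metastasis 5 lay among the adenomas. Hif1a mRNA was 7.26-fold higher in disseminated cells than in carcinomas (log2 2.86 ± 0.62 SE, limma adjusted p = 0.00246) and 6.86-fold higher in metastases than in carcinomas (2.78 ± 0.65, adjusted p = 0.00527). Without carcinoma 6 the changes were 3.24 and 3.16. The other 4 comparisons of Hif1a were not called. With slide as a block, however, disseminated cells exceeded adenomas by 1.91 ± 0.65 and passed (adjusted p = 0.0402), against 1.76 (adjusted p = 0.0608) without the block. Within slides 9, 10 and 11 that difference was 3.42, 1.56 and 0.18. Carcinomas against adenomas gave -1.10 (95% interval -2.46 to 0.26).

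The prolyl hydroxylase genes Egln1 and Egln3 were not called in any comparison. Egln1 averaged -2.53 ± 0.48 (SD, n = 6) in carcinomas and -2.01 ± 0.50 (n = 5) in adenomas, -2.11 ± 0.59 (n = 6) in disseminated cells and -2.02 ± 0.73 (n = 5) in metastases. Egln3, itself a HIF target, averaged -1.46 ± 0.65 in disseminated cells and between -0.70 and -0.59 in the other groups.

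Ddit4 encodes an inhibitor of mTORC1 signaling that hypoxia and other stresses induce. It was picked for description because of its rise in carcinomas, so that rise is not independent evidence. Comparisons of disseminated cells and metastases with carcinomas use the same carcinoma values, so they are not independent evidence either. Ddit4 was -1.54, 0.40, -1.15, -0.33 and -2.06 in adenomas. In carcinomas it ran from 1.43 to 2.87 with a median of 2.17, and in disseminated cells from -2.78 to 0.13 with a median of -1.71. In metastases it was 0.45, -0.11, 0.40, -0.24 and 4.59. Every carcinoma lay above every adenoma and every disseminated sample, whereas 4 metastases lay below all carcinomas, at -0.24 to 0.45 near the top of the adenoma range, and metastasis 5 lay above all other samples. Carcinomas exceeded adenomas 8.79-fold (log2 3.14 ± 0.73, adjusted p = 0.00982). Disseminated cells fell below carcinomas 12.6-fold, a log2 change of -3.66 ± 0.70 (adjusted p = 0.000995), and this change was -3.81 without carcinoma 6. Metastases exceeded disseminated cells by 2.48 ± 0.73 (adjusted p = 0.0298), a call that was lost without metastasis 5 (1.58, adjusted p = 0.0631) and without any 1 of disseminated 1, 2, 3 and 5 (adjusted p 0.0515 to 0.0766). Metastases were not called against adenomas (1.95, 95% interval 0.36 to 3.55, adjusted p = 0.0607) or against carcinomas (-1.18, -2.71 to 0.34).

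**Figure D2:**
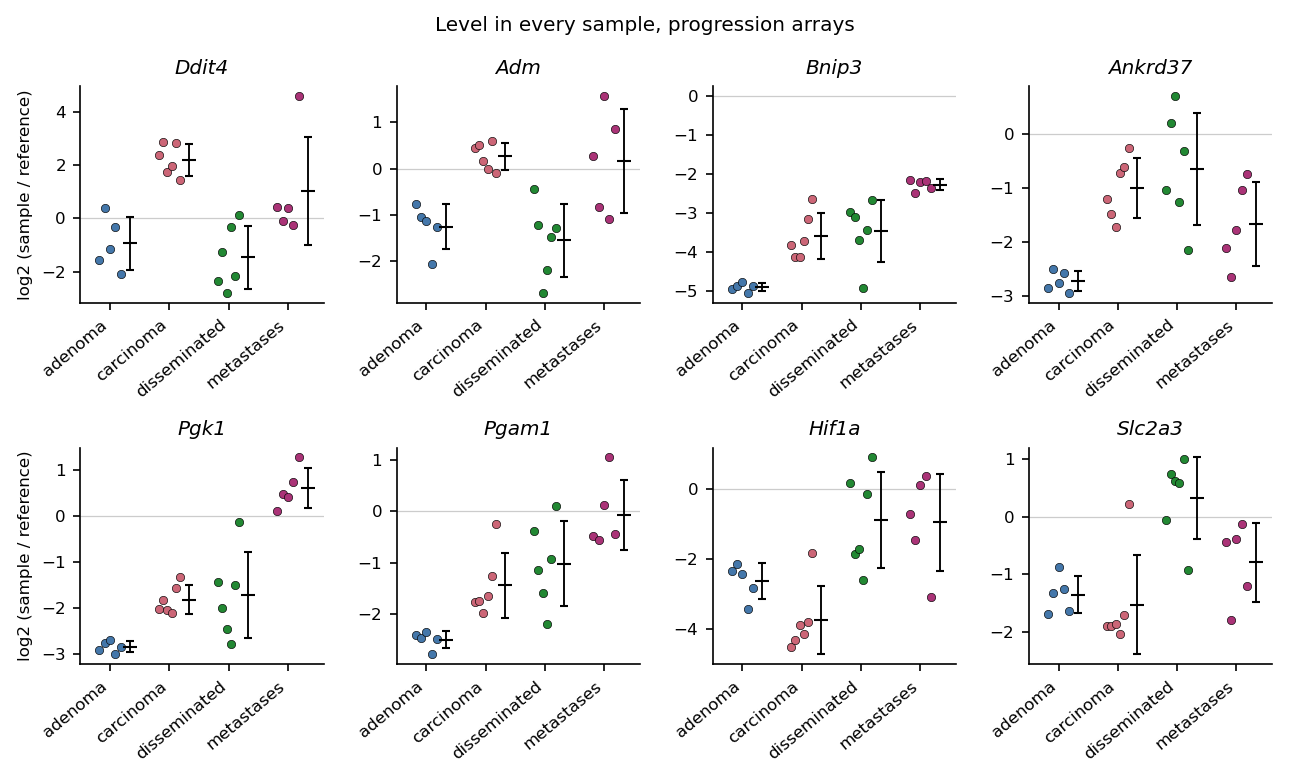
Log2 ratio to the reference RNA (vertical axis) of 8 genes in every progression sample (points, in replicate order within a group), with the group mean and SD as black bars. Ddit4 and Adm are high in carcinomas and low in disseminated cells, Bnip3 and Pgk1 are highest in metastases, and Hif1a and Slc2a3 show 1 carcinoma, replicate 6, far above the other 5.

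Adm encodes adrenomedullin, a secreted vasodilator peptide. Its level was -0.76, -1.04, -1.14, -2.06 and -1.26 in adenomas and ran from -0.10 to 0.60 in carcinomas (median 0.30) and from -2.69 to -0.45 in disseminated cells (median -1.38). In metastases it was 0.27, -0.83, 1.57, -1.09 and 0.86. As for Ddit4, every carcinoma exceeded every adenoma and every disseminated sample, and the metastases spread over both ranges. The changes were 1.52 ± 0.42 in carcinomas against adenomas (adjusted p = 0.0247, or 0.0574 without adenoma 4) and -1.82 ± 0.40 in disseminated cells against carcinomas (adjusted p = 0.00277). Metastases exceeded disseminated cells by 1.71 ± 0.42 (adjusted p = 0.011) and adenomas by 1.41 ± 0.44 (adjusted p = 0.0211). The last call was lost without metastasis 3 (1.06, adjusted p = 0.0689), metastasis 5 (1.24, 0.0526) or adenoma 4 (1.21, 0.0617).

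Bnip3, a mitochondrial protein of autophagy and cell death, followed another course. It was -4.96, -4.87, -4.76, -5.04 and -4.86 in adenomas and -2.14, -2.48, -2.20, -2.18 and -2.37 in metastases. Carcinomas ran from -4.12 to -2.64 (median -3.77) and disseminated cells from -4.92 to -2.66 (median -3.27). Adenomas held the lowest levels, overlapping only with disseminated 4 (-4.92), and all 5 metastases lay above all other samples. Bnip3 rose by 1.30 ± 0.31 from adenomas to carcinomas (adjusted p = 0.0107), and metastases exceeded carcinomas by 1.32 ± 0.31 (adjusted p = 0.00511), disseminated cells by 1.19 ± 0.31 (adjusted p = 0.0149) and adenomas by 2.62 ± 0.32 (adjusted p = 2.02e-05). Without disseminated 4 the excess over disseminated cells was 0.90, under 2-fold. Disseminated cells exceeded adenomas by 1.43 ± 0.31 (adjusted p = 0.00392).

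Ero1l, an oxidase that helps disulfide bonds form in the endoplasmic reticulum, had the lowest adjusted p of the 32 genes in carcinomas against adenomas. It was -2.28, -1.98, -2.07, -2.32 and -1.99 in adenomas, -1.26 to -0.31 in carcinomas (median -0.86), -2.11 to -0.79 in disseminated cells (median -1.65) and -0.48, -0.65, -0.39, -0.53 and -0.34 in metastases. Neither carcinomas nor metastases overlapped with adenomas. The changes against adenomas were 1.32 ± 0.20 in carcinomas (adjusted p = 0.000552) and 1.65 ± 0.21 in metastases (adjusted p = 2.81e-05). The call in carcinomas was lost with the mean of the gene's probes in place of the brightest (0.98, under 2-fold). Metastases exceeded disseminated cells by 1.09 ± 0.20 (adjusted p = 0.00168), or 0.98 without disseminated 3.

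Ankrd37, an ankyrin repeat protein and HIF1 target, was -2.84, -2.49, -2.76, -2.57 and -2.93 in adenomas. It ran from -1.72 to -0.27 in carcinomas (median -0.95) and from -2.14 to 0.71 in disseminated cells (median -0.68), and was -2.11, -2.65, -1.77, -1.03 and -0.74 in metastases. All carcinomas and all disseminated samples were above all adenomas, and metastasis 2 was within the adenoma range. It rose by 1.72 ± 0.42 in carcinomas (adjusted p = 0.0127) and by 2.08 ± 0.42 in disseminated cells (adjusted p = 0.00274), both against adenomas. Metastases against adenomas gave 1.06, which was not called (adjusted p = 0.0775).

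P4ha1 and P4ha2 encode catalytic subunits of the collagen prolyl 4-hydroxylase, and by the brightest probe of each the pair parted in disseminated cells. P4ha1 was -2.30, -1.88, -2.27, -1.72 and -2.59 in adenomas, -2.09 to -0.44 in carcinomas (median -1.57), -1.29 to 0.24 in disseminated cells (median -0.09) and -1.13, -1.85, -0.88, 0.12 and -1.71 in metastases. P4ha2 ran from -3.04 to -1.80 in carcinomas (median -2.50) and from -4.86 to -2.83 in disseminated cells (median -4.19). By these probes, disseminated cells were thus the highest group for P4ha1 and the lowest for P4ha2. P4ha1 in disseminated cells exceeded adenomas by 1.81 ± 0.35 (adjusted p = 0.00217) and carcinomas by 1.06 ± 0.33 (adjusted p = 0.024), while P4ha2 fell by 1.55 on the log2 scale against carcinomas (SE 0.32, adjusted p = 0.00185). The P4ha2 call against carcinomas was lost with the mean of the gene's probes in place of the brightest (-0.75, under 2-fold). P4ha2 in disseminated cells against adenomas was under 2-fold (-0.99, adjusted p = 0.0434), but passed with slide as a block (-1.08, adjusted p = 0.0241). P4ha1 also exceeded adenomas in metastases (1.06 ± 0.37, adjusted p = 0.035). The P4ha1 call against carcinomas was lost without carcinoma 3 or 4 or disseminated 2, 3 or 5 (adjusted p 0.0508 to 0.0624), and that in metastases without adenoma 1, 3 or 5 or metastasis 1, 3 or 4 (adjusted p 0.0565 to 0.113).

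Ndrg1, a cytoplasmic protein induced by hypoxia and by differentiation, was lowest in disseminated cells. Its level was -0.83, -0.32, -0.76, -1.49 and -0.94 in adenomas and -0.03, -0.27, -0.67, -1.08 and -0.29 in metastases, and ran from -1.68 to -1.11 in carcinomas (median -1.36) and from -2.88 to -1.30 in disseminated cells (median -1.70). Metastases and disseminated cells did not overlap and differed by 1.43 ± 0.26 (adjusted p = 0.00165). Disseminated cells against adenomas gave -1.03 ± 0.26 (adjusted p = 0.00963), which was under 2-fold without disseminated 3 (-0.84), disseminated 5 (-0.92) or adenoma 2 (-0.90). Metastases against carcinomas gave 0.90, past the adjusted p (0.0187) but under 2-fold.

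Higd1a, a mitochondrial survival protein, was the single member that fell in metastases. It was -2.94, -2.48, -2.63, -2.25 and -2.64 in adenomas and -4.01, -4.49, -4.23, -3.22 and -3.25 in metastases, with no overlap and a change of -1.25 ± 0.32 (adjusted p = 0.00642). A second probe of the gene gave 0.55 (adjusted p = 0.0658 among all probes). Car9, the cell-surface carbonic anhydrase often used as a hypoxia marker, was -0.39, -0.18, -0.38, -0.28 and -0.59 in adenomas and ran from -0.13 to 1.07 in carcinomas. Those groups did not overlap, but the difference of 0.79 ± 0.21 (adjusted p = 0.0205) was under 2-fold. Vegfa, the vascular growth factor, and Mxi1, a Myc antagonist, were called in no comparison. Group means of Vegfa lay between -0.84 and -0.26.

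The glucose transporters differed from each other. Slc2a1, the widely expressed transporter, was -0.78, -0.15, -0.35, -1.06 and -1.41 in adenomas and 0.17, 0.21, -0.42, 0.83 and -0.73 in metastases. It ran from -1.89 to -0.15 in carcinomas (median -0.82) and from -1.30 to -0.05 in disseminated cells (median -0.62). All 4 groups overlapped, and the nearest to a call was metastases against carcinomas at 0.97 ± 0.33 (adjusted p = 0.039), under 2-fold. Slc2a3, a high-affinity transporter known from neurons and blood cells, was -1.68, -1.33, -0.87, -1.25 and -1.63 in adenomas, -2.03 to 0.21 in carcinomas (median -1.87), -0.93 to 1.0 in disseminated cells (median 0.59) and -0.45, -1.78, -0.40, -0.13 and -1.20 in metastases. The value of 0.21 was again carcinoma 6, and the other 5 carcinomas lay between -2.03 and -1.70, below all disseminated samples. Slc2a3 was higher in disseminated cells than in carcinomas by 1.85 ± 0.38 (adjusted p = 0.00167) and than in adenomas by 1.67 ± 0.40 (adjusted p = 0.00654). Without carcinoma 6, metastases also exceeded carcinomas (1.08, adjusted p = 0.0175). The other Slc2a3 probes did not show the rise, at -0.09 and 0.24 against carcinomas and 0.45 and 0.33 against adenomas, and one of them was above background on 3 of the 22 arrays. By the listed coordinates, 1 of these other probes lies on chromosome 17, and the remaining Slc2a3 probes lie on chromosome 6.

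Of the 12 glycolytic enzymes measured, Pgk1, the phosphoglycerate kinase of the first ATP-yielding step, changed most. It was -2.91, -2.77, -2.69, -3.01 and -2.85 in adenomas and 0.12, 0.49, 0.42, 0.76 and 1.28 in metastases. Carcinomas ran from -2.10 to -1.32 (median -1.93) and disseminated cells from -2.79 to -0.13 (median -1.75). All 5 metastases lay above all other samples. Metastases exceeded adenomas 11-fold (log2 3.46 ± 0.34, adjusted p = 3.14e-06), carcinomas 5.39-fold (2.43 ± 0.33, adjusted p = 0.000118) and disseminated cells 5.04-fold (2.33 ± 0.33, adjusted p = 0.00025). Within slides 6, 7 and 8, metastases exceeded carcinomas by 2.82, 2.47 and 1.93. The rise in carcinomas over adenomas, 1.03 ± 0.33, passed narrowly (adjusted p = 0.0458) and was lost without any 1 of the 11 samples compared (0.93 to 1.09, adjusted p 0.0578 to 0.0818). Disseminated cells exceeded adenomas by 1.13 ± 0.33 (adjusted p = 0.0199), and by 0.81 without disseminated 6.

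Pgam1, the phosphoglycerate mutase of the next step, also climbed. It was -2.41, -2.47, -2.36, -2.78 and -2.49 in adenomas, -1.98 to -0.24 in carcinomas (median -1.70), -2.20 to 0.11 in disseminated cells (median -1.04) and -0.49, -0.56, 0.12, 1.05 and -0.44 in metastases. Adenomas lay below all other samples. Metastases exceeded adenomas by 2.44 ± 0.39 (adjusted p = 0.000162) and carcinomas by 1.38 ± 0.37 (adjusted p = 0.0122), and disseminated cells exceeded adenomas by 1.48 ± 0.37 (adjusted p = 0.00892). Within slides 6, 7 and 8, metastases exceeded carcinomas by 1.54, 2.16 and 0.19, and within slides 9, 10 and 11, disseminated cells exceeded adenomas by 2.46, 1.23 and 0.68.

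The hexokinases, which trap glucose as its phosphate, were called in different comparisons. Hk2, the inducible form, was 0.34, 0.27, 0.32, -0.02 and 0.62 in adenomas, -0.40 to 1.62 in carcinomas (median 0.04) and 1.53, 0.37, 2.01, 3.71 and 0.92 in metastases. Carcinoma 6 held the 1.62 and metastasis 4 the 3.71. Hk2 in metastases exceeded carcinomas by 1.50 ± 0.47 (adjusted p = 0.0278) and adenomas by 1.40 ± 0.49 (adjusted p = 0.0382). Both calls depended on single samples, the first on carcinomas 2, 3 and 4 and metastases 3 and 4 (adjusted p 0.0541 to 0.0851 without any 1 of them), and the second on adenomas 1 to 4 and metastases 1, 3 and 4 (0.0551 to 0.119). Within slides 6, 7 and 8, Hk2 in metastases differed from carcinomas by 1.70, 2.64 and -0.52, so slide 8, which held carcinoma 6, went the other way. Hk1 ran from -0.73 to 2.10 in disseminated cells (median 0.03) and was 1.37, 2.13, 1.05, 1.45 and 2.12 in metastases, a difference of 1.37 ± 0.35 (adjusted p = 0.0149), with disseminated 6 at 2.10 inside the range of metastases. The other 5 Hk1 probes gave between -0.02 and 0.94 for this difference.

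Pfkp, a subunit of the phosphofructokinase that commits glucose to glycolysis, was -0.50, 0.48, 0.01, 0.28 and -1.84 in metastases and ran from -2.38 to -0.78 in carcinomas (median -1.77), and was -1.77, -1.44, -1.89, -1.93 and -1.94 in adenomas. Only metastasis 5 lay in the range of the primary tumors. Metastases exceeded carcinomas by 1.38 ± 0.38 (adjusted p = 0.013) and adenomas by 1.48 ± 0.39 (adjusted p = 0.00819). Neither of the other Pfkp probes showed this: they gave -0.70 and 0.23 against carcinomas and -0.61 and -1.07 against adenomas. Pfkl, Gpi1, Aldoa, Tpi1, Eno1 and Pkm2 were called in no comparison, although Aldoa in carcinomas exceeded adenomas by 1.11 (adjusted p = 0.0255) once carcinoma 6 was left out.

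Aldoc, an aldolase isoform, fell in disseminated cells. It ran from 2.32 to 4.73 in carcinomas (median 3.53) and from 0.27 to 3.78 in disseminated cells (median 0.59), where 4 of the 6 samples were at 0.27 to 0.72 and disseminated 4 and 6 at 2.48 and 3.78. The change against carcinomas was -2.24 ± 0.63 (adjusted p = 0.0122), and a second probe gave -1.73 (adjusted p = 0.00568 among all probes). Disseminated 4 and 6 were the pair with the highest mammary marker means, 2.86 and 3.54, and disseminated 3 and 5, at 0.47 and 0.27 for Aldoc, had the lowest, -0.16 and 0.28. The part of cell mixture in this fall was not tested.

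Of the 3 genes of pyruvate fate and glycolytic rate, 1 rose in metastases against carcinomas, 2 against disseminated cells and 2 against adenomas. Ldha, which makes lactate from pyruvate, was 0.18, 0.27, -0.21, -1.03 and -1.32 in metastases, -2.03, -1.30, -1.36, -2.34 and -2.16 in adenomas and -2.33 to -0.06 in disseminated cells (median -2.05). Metastases exceeded adenomas by 1.42 ± 0.37 (adjusted p = 0.00786) and disseminated cells by 1.27 ± 0.36 (adjusted p = 0.0241). The second difference was not called without disseminated 3 or 4 or metastasis 1, 2 or 3 (adjusted p 0.0546 to 0.0739). A second Ldha probe gave larger changes of 3.09 and 2.26.

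Pdk1 encodes a kinase that inhibits pyruvate dehydrogenase. It ran from -1.86 to -0.74 in carcinomas (median -1.20) and from -2.94 to -1.69 in disseminated cells (median -2.24). In metastases it was -1.0, -1.14, -0.96, -2.29 and -0.38. Disseminated cells were the lowest group, with metastasis 4 among them. Pdk1 fell by 1.08 on the log2 scale in disseminated cells against carcinomas (SE 0.29, adjusted p = 0.00943), and this was under 2-fold without disseminated 3 (-0.95), disseminated 5 (-0.97) or carcinoma 4 (-0.98). Metastases exceeded disseminated cells by 1.15 ± 0.30 (adjusted p = 0.0159), or 0.96 without metastasis 5. Both Pdk1 calls were lost with the mean of the gene's probes in place of the brightest. Pfkfb3, which makes the activator of phosphofructokinase, was 3.64, 3.71, 3.57, 4.66 and 3.48 in metastases, above all adenomas (3.28, 2.69, 1.99, 2.33 and 2.90) and all carcinomas (2.32 to 3.31). The differences were 1.17 ± 0.28 (adjusted p = 0.00384) and 1.14 ± 0.27 (adjusted p = 0.00527), and 0.96 and 0.92 without metastasis 4. The other Pfkfb3 probes gave 0.10 and 0.73 against adenomas and -0.37 and -0.05 against carcinomas.

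Several of these levels moved with the macrophage markers given above. Hif1a was -0.71, 0.10 and 0.37 in metastases 1, 3 and 4, where the marker mean was 3.93, 4.71 and 5.48, and -1.44 and -3.08 in metastases 2 and 5, where it was 1.22 and 1.34. In the same order, Slc2a3 was -0.45, -0.40 and -0.13 in the former and -1.78 and -1.20 in the latter. Carcinoma 6, with a marker mean of 5.13, held the highest carcinoma value of Hif1a, Slc2a3, Hk2, Pgam1, P4ha1, Bnip3 and Pgk1. For Pgk1 the metastases with the lowest macrophage marker means, 2 and 5, were at 0.49 and 1.28, within or above the 0.12 to 0.76 of the others. These samples still held markers of other cells. Their alveolar macrophage means were 2.07 and 3.18 (at most 1.51 in carcinomas) and their lung epithelium means 1.97 and 3.38 (at most 1.50). Ddit4 was 1.72 to 2.87 in carcinomas 1 to 5 and 4.59 in metastasis 5. Macrophage marker means were at most 1.34 in these samples, in adenomas and in metastasis 2. Ddit4 in the adenomas and metastasis 2, however, was at most 0.40. The part of other cells in these levels was not tested.

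**Figure D3:**
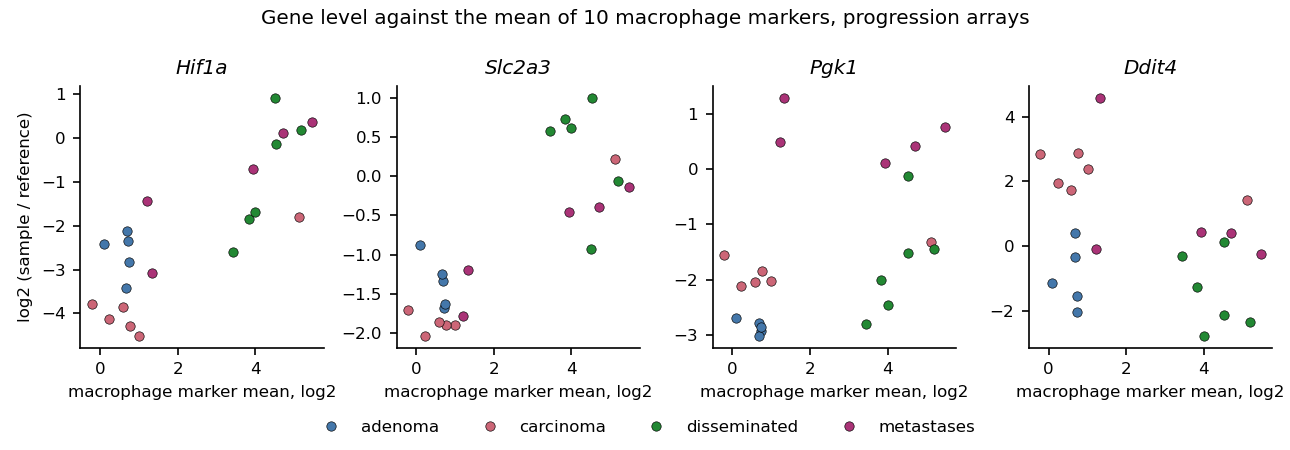
Log2 ratio of Hif1a, Slc2a3, Pgk1 and Ddit4 (vertical axes) against the mean log2 ratio of 10 macrophage markers (horizontal axes) in the 22 progression samples, colored by group. Hif1a and Slc2a3 mostly lie higher in samples with more marker signal, carcinoma 6 included, while Pgk1 is at 0.49 and 1.28 in the 2 metastases with the lowest marker means.

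Genes of the same pathways outside the 33 were counted from 3 lists, to be read against the shares of all genes called. In carcinomas against adenomas (all genes: 1.2% higher and 2.17% lower), 2 of 28 other hypoxia-induced genes rose and 1 fell, 1 of 23 other glycolysis genes rose and 1 fell, and 0 of 7 other HIF pathway components were called. The rises of over 4-fold were Pgf, a placental growth factor of the Vegf family (2.05 ± 0.38, adjusted p = 0.00232), and Slc16a3, the exporter of lactate (2.18 ± 0.44, adjusted p = 0.00383). Slc16a3 was higher still in disseminated cells, by 2.19 ± 0.42 against carcinomas (adjusted p = 0.000996), so that it did not follow Ddit4 and Adm down. In disseminated cells against carcinomas (all genes: 5.54% and 6.23%), 5 of 28 other hypoxia-induced genes rose and 2 fell, and 6 of 23 other glycolysis genes rose and 3 fell. Hk3, a hexokinase of blood cells, rose by 2.86 ± 0.65 (adjusted p = 0.00348) and Ldhb, the lactate dehydrogenase subunit of oxidative tissue, fell by 2.67 on the log2 scale (SE 0.64, adjusted p = 0.00473). In metastases against carcinomas (all genes: 4.77% and 5.45%), 4 of 28 other hypoxia-induced genes rose and 0 fell. There, 1 of 23 other glycolysis genes rose and 1 fell. In metastases against disseminated cells (all genes: 3.45% and 3.73%), 3 of 28 rose and 1 fell, and 0 of 23 glycolysis genes rose and 1 fell. In disseminated cells against adenomas (all genes: 4.71% and 5.98%), 4 of 28 rose and 2 fell, and 5 of 23 glycolysis genes rose and 0 fell. In metastases against adenomas (all genes: 6.13% and 8.66%), 4 of 28 rose and 2 fell, and 3 of 23 glycolysis genes rose and 1 fell. Among the 7 other HIF pathway components, 1 rose in metastases against disseminated cells and 1 fell in disseminated cells against adenomas. In metastases against adenomas 1 of the 7 rose and 1 fell, and 0 were called in the remaining comparisons.

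The second question was whether these genes differ between untreated, residual and relapsed tumors. None of the 32 was called in residual against untreated tumors, relapsed against residual tumors or relapsed against untreated tumors (limma, 0 of 32 each), where 0.104%, 0.218% and 0.0107% of all genes were called. At an unadjusted p below 0.05 there were 5, 9 and 2 of the 32, against 9.13%, 7.8% and 7.71% of all genes. The lowest adjusted p among the 32 was 0.194, 0.186 and 0.43. The median change was -0.15, 0.23 and 0.15 (all genes: -0.00, 0.02 and 0.01), with 24 of 32 below 0 in residual against untreated tumors, and 23 and 24 above 0 in the pair of relapsed comparisons. The chemotherapy arrays spanned 5 slides and 1 scan day. All arrays of slide 1 were untreated tumors and all of slide 3 residual tumors, so slide was partly confounded with group. Residual and untreated tumors shared only slide 2, relapsed and residual tumors only slide 4, and relapsed and untreated tumors only slide 5. Each of these slides held 2 arrays of the group named first and 1 of the other. Values with slide as a block therefore rest on few arrays. With slide as a block none of the 32 genes passed (lowest adjusted p 0.512 for relapsed against residual tumors), but that comparison's median moved from 0.23 to 0.52 and Ddit4 in it from -0.03 to 1.38 ± 0.60 (adjusted p = 0.729). Blocked values were also larger there for Bnip3 (1.44), Ankrd37 (1.30), Ero1l (1.29) and Pgk1 (1.06), and Ddit4 in relapsed against untreated tumors moved from 0.25 to 1.33. Macrophage marker means overlapped among the groups (-0.21 to 2.50 in untreated, -0.45 to 1.87 in residual and -0.82 to 1.08 in relapsed tumors).

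**Figure D4:**
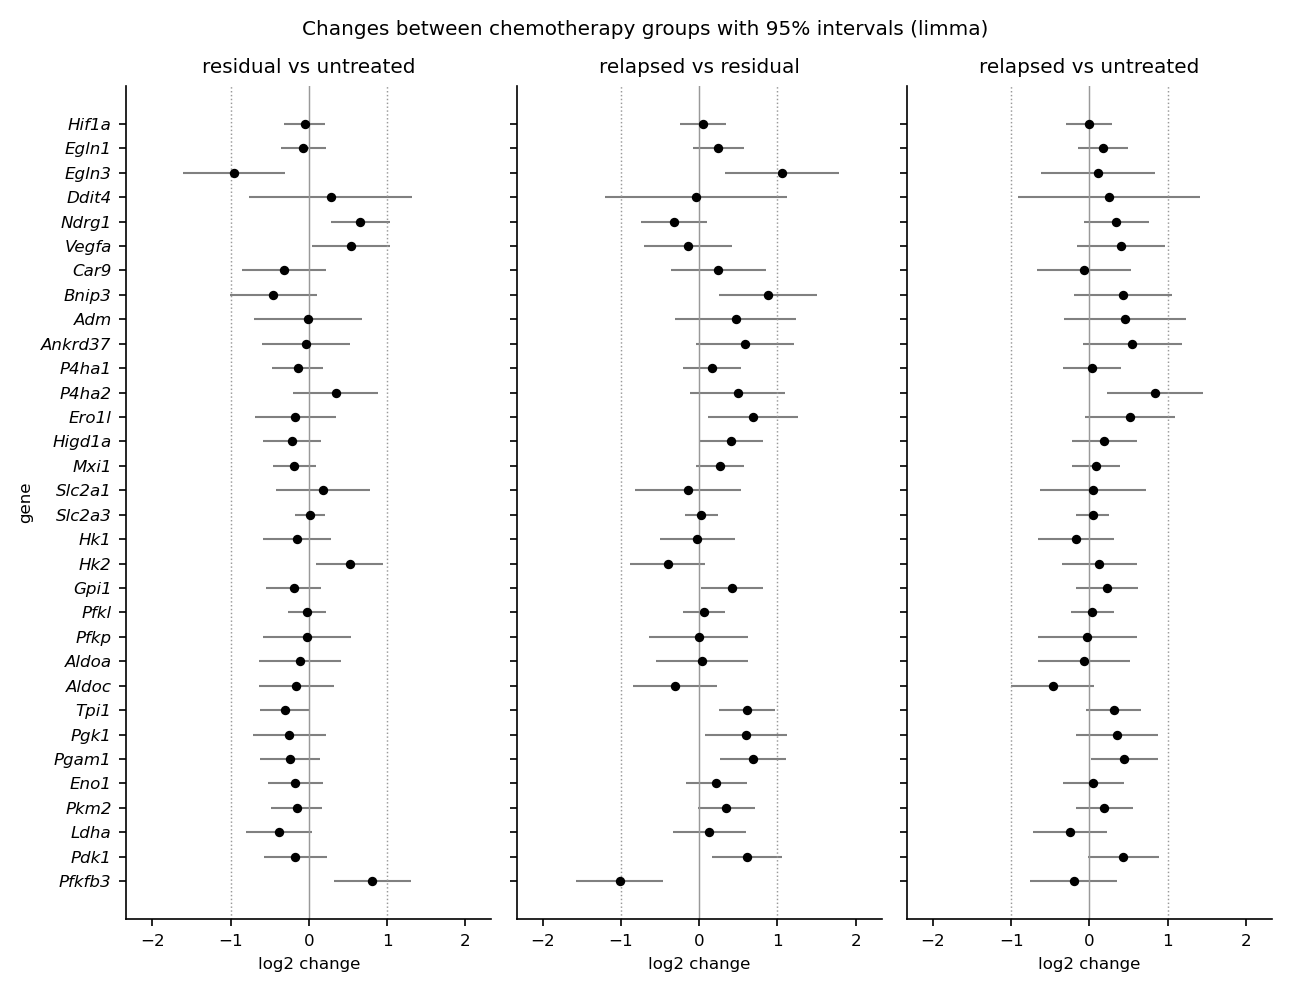
Log2 change (points) and 95% limma interval (bars) of the 32 genes in the 3 chemotherapy comparisons, with dotted lines at a 2-fold change in either direction. The largest point estimates are those of Egln3 and Pfkfb3, and none of the changes passed the adjusted test.

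Ddit4 was widely spread within each chemotherapy group. It ran from -1.38 to 1.75 in untreated tumors (median 0.53) and from 0.14 to 1.67 in residual tumors (median 0.67), and was 1.95, 1.11, -0.26 and 0.17 in relapsed tumors. The groups overlapped, and residual against untreated tumors gave 0.28 with a 95% interval of -0.76 to 1.32. Hif1a was much tighter, from -1.92 to -1.15 in untreated tumors and -1.67 to -1.28 in residual tumors, and -1.34, -1.74, -1.47 and -1.17 in relapsed tumors. Its intervals, -0.31 to 0.21 for residual against untreated tumors and -0.25 to 0.34 for relapsed against residual tumors, lie within a 2-fold change. Slc2a1 was -0.03 to 1.88 in untreated tumors, 0.85 to 1.88 in residual tumors and 0.46, 1.61, 0.96 and 1.46 in relapsed tumors.

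Pfkfb3 and Ndrg1 had the lowest adjusted p of the 32 genes, and Egln3 and Pfkfb3 the largest differences. Egln3 ran from -1.26 to 0.08 in untreated tumors (median -0.64) and from -2.51 to -0.77 in residual tumors (median -1.51), and was -1.67, -0.20, -0.10 and -0.15 in relapsed tumors. Residual tumors were lowest, with relapsed 1 among them. The differences were -0.96 (95% interval -1.61 to -0.30, adjusted p = 0.323) against untreated tumors and 1.06 for relapsed over residual tumors (0.33 to 1.79, adjusted p = 0.396). Pfkfb3 ran the other way, from 1.60 to 2.83 in untreated tumors (median 2.15) and 2.32 to 3.47 in residual tumors (median 2.97), and was 2.16, 2.24, 1.50 and 2.01 in relapsed tumors. Relapsed and residual tumors did not overlap for Pfkfb3, at -1.02 (-1.57 to -0.46, adjusted p = 0.186). Ndrg1 ran from -1.39 to -0.54 in untreated and from -0.68 to -0.17 in residual tumors, a difference of 0.66 (0.29 to 1.03, adjusted p = 0.194).

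In relapsed against residual tumors, the glycolytic enzymes Pgam1 and Tpi1 also did not overlap. The share of all genes without overlap between these groups is not given here, so the lack of overlap cannot be weighed. Pgam1 was -2.07, -1.85, -2.03 and -2.05 in relapsed tumors against -3.14 to -2.27 in residual tumors (0.69, adjusted p = 0.287). Tpi1 was -2.07, -1.54, -1.89 and -1.70 against -2.71 to -2.11 (0.61, adjusted p = 0.234). Bnip3 was -4.04, -3.18, -3.46 and -2.99 against -4.59 to -3.72 (0.88, adjusted p = 0.409). The largest difference of relapsed from untreated tumors was that of P4ha2, -2.31, -1.67, -2.90 and -1.78 against -3.41 to -2.45 (0.84, 95% interval 0.23 to 1.45, adjusted p = 0.43). These differences did not pass the adjusted test, and the 95% intervals reached beyond a 2-fold change for 6 genes in residual against untreated tumors, 11 in relapsed against residual tumors and 7 in relapsed against untreated tumors.

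**Figure D5:**
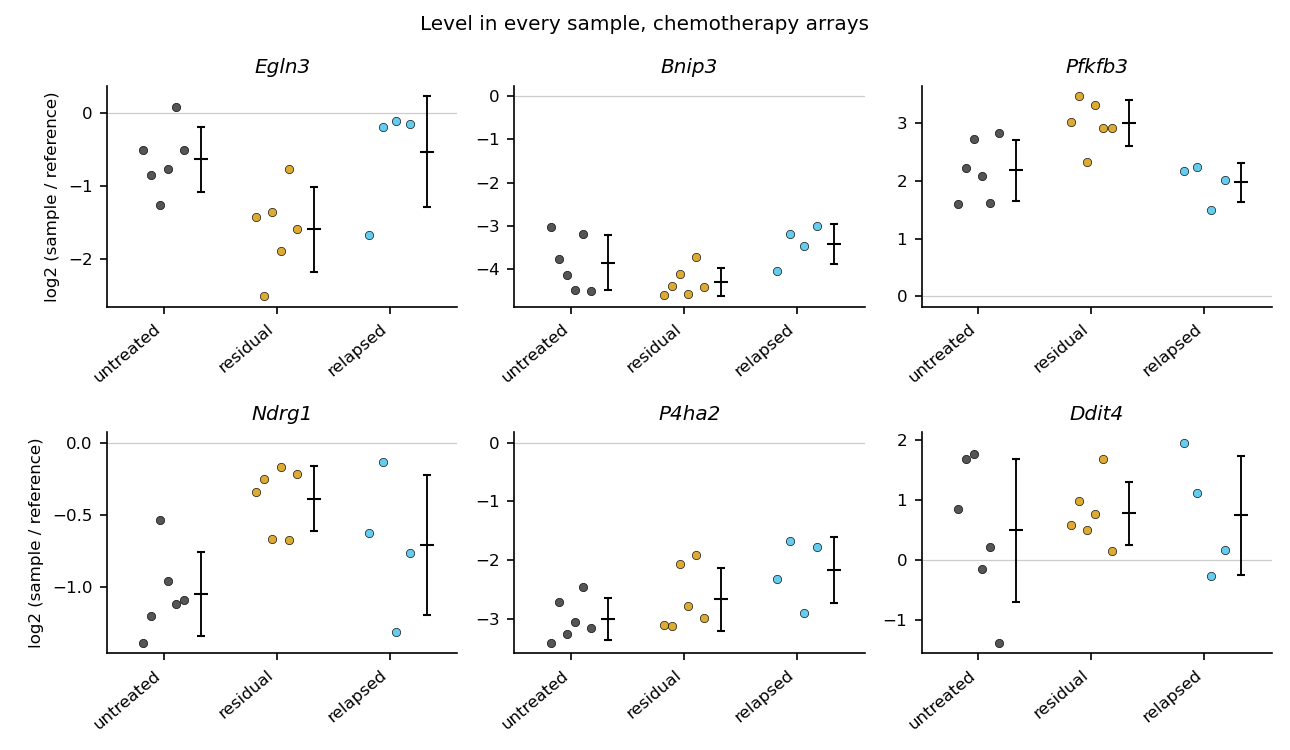
Log2 ratio to the reference RNA (vertical axis) of 6 genes in every chemotherapy sample (points, in replicate order within a group), with the group mean and SD as black bars. By group mean, residual tumors are lowest for Egln3 and highest for Pfkfb3, and the 3 groups overlap for Ddit4.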

How the data were processed

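Two-color Agilent mouse arrays were hybridized with labeled cRNA, the sample in Cy5 and a universal mouse reference in Cy3, without dye swap, after 1 round of labeling for the 16 chemotherapy arrays and 2 rounds of amplification for the 22 progression arrays. The authors deposited the scanner intensity of each spot from Agilent Feature Extraction 10.7, with probe coordinates in mm7, and a table of log2 ratios, whose columns each correlated best with their own array (38 of 38, r = 0.966 to 0.998). The intensities were corrected by normexp (offset 50), normalized by loess within arrays and by quantiles between the arrays of each experiment, and averaged over the spots of a probe, leaving out control spots and spots marked as outliers, with limma 3.58.1 in R 4.3.3. Each gene name was represented by its probe of highest mean signal. Of the 32 measured genes, 18 had more than 1 probe, and Vegfa was represented by different probes in the 2 experiments. All groups of an experiment entered 1 model, with Benjamini-Hochberg adjustment over 27962 gene names. Groups came from the labels. The sources used here do not say whether all samples of a group came from separate hosts, and p-values measure only the spread between these samples. The number of arrays limits the precision. The scripts were tested on simulated data. The 33 members, the other gene lists and the rule that every member may be named were chosen with earlier results of these data known. Promoter windows are from RefSeq (GRCm38.p6). Figures were drawn with matplotlib 3.10.9.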

Additional observations from a re-analysis of the deposited data

Results flagged for a closer look

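Of 224 sets of values, each a gene in a group of 4 to 6 samples, 16 held a sample far from the others of its group (the gap to its nearest neighbor exceeded the 95% critical value of Dixon's test), where chance gives about 1 in 20. Carcinoma 6 accounted for 6 of them. It was highest for Hif1a (-1.81, next -3.79), Slc2a3 (0.21, next -1.70), Hk2 (1.62, next 0.16) and Mxi1 (-0.73, next -1.49), and lowest for Pfkl (-2.37, next -0.02) and Pkm2 (-2.57, next -1.56). Its macrophage marker mean was 5.13, against at most 1.0 in the other carcinomas, and the part of those cells in its values was not tested.

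Metastasis 5 stood above the other metastases for Ddit4 (4.59, next 0.45), and metastasis 4 for Pfkfb3 (4.66, next 3.71) and Egln1 (-0.77, next -2.10). Adenoma 4 was highest for Egln1 (-1.15, next -2.06). Among disseminated cells, sample 6 was highest for Hk1 (2.10, next 0.22) and sample 2 for Gpi1 (-0.73, next -1.48). In the chemotherapy experiment, residual 6 was highest for Aldoa (0.21, next -1.07), relapsed 1 was lowest for Egln3 (-1.67, next -0.20) and Car9 (-0.59, next 0.44), and relapsed 4 was highest for Pdk1 (-0.17, next -0.61).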

How the results depend on the processing

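Of the 48 called changes, 19 were called under all alternatives other than leaving out a sample, and 31 with any 1 sample left out. Testing every probe, leaving out dim probes, scanner-processed signals, median centring and keeping the outlier spots (an alternative chosen after seeing the data) lost 0 of the 48. The mean of a gene's probes in place of the brightest lost 11 and turned Pfkp in metastases against adenomas to -0.066 (adjusted p = 0.866), as its other probes did not rise. That setting left 5 calls for disseminated cells against carcinomas, in place of 8. The deposited log2 ratios gave 17 calls for metastases against adenomas, in place of 11 (all genes 16.1% in place of 14.8%), and fitting only the groups compared gave 3 for metastases against disseminated cells, in place of 9 (all genes 2.5% in place of 7.18%); the cause was not tested. At an adjusted p below 0.01, the counts were 2 for carcinomas against adenomas, 4 for metastases against carcinomas and 3 for metastases against disseminated cells. With a sample left out, the counts ran from 4 to 6 (carcinomas against adenomas), 6 to 10 (disseminated cells against carcinomas, and metastases against carcinomas), 6 to 14 (metastases against disseminated cells), 6 to 9 (disseminated cells against adenomas) and 8 to 13 (metastases against adenomas), and all chemotherapy counts stayed at 0. Among these alternatives, a share of all genes is given only for carcinoma 6 left out, the deposited ratios and the groups compared alone. The other counts of this section cannot be set against the whole array.

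Whether the replicate numbers in the labels pair the samples was not settled. Samples with the same number deviated together (r over 0.1) in 8 of 31 pairs of the progression experiment and 6 of 14 of the chemotherapy experiment. Samples with different numbers were not examined in this way, so these counts have no baseline. With the replicate block, the counts were 5, 7, 8, 11, 6 and 10 in the 6 progression comparisons, in the order carcinomas against adenomas, disseminated cells against carcinomas, metastases against carcinomas, metastases against disseminated cells, disseminated cells against adenomas and metastases against adenomas, and 0 in the 3 chemotherapy comparisons. With slide as a fixed block, all 14 called changes between groups that shared slides were called again. A further 2 were gained, both in disseminated cells against adenomas (Hif1a 1.91, P4ha2 -1.08). Each of the 14 had 1 direction on every slide, except Hk2 in metastases against carcinomas on slide 8 (-0.52).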
